A study of Mus musculus with 12 samples.

Results

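Cdkn1a, Mdm2, Ccng1, Gdf15, Trp53inp1, Bax, Sesn2, Phlda3, Eda2r and Zmat3 are 10 genes that p53 is known to switch on after DNA damage. They were chosen by gene symbol from the 31053 genes listed for each library. They were followed through single-nucleus RNA sequencing of the frozen lungs of 12 C57BL/6J mice, 1 library per mouse. Mice received bleomycin (1.2 U/kg) or PBS into the trachea at 7 weeks of age. From day 5 they received NVP-BHG712, a small-molecule inhibitor of the receptor kinase EphB4, or its vehicle for 5 days, and lungs were taken on day 14. The 4 groups of 3 mice are PBS_vehicle, PBS_NVP, Bleo_vehicle and Bleo_NVP.

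After filtering and removal of likely doublets, 44611 nuclei remained, with 1168 to 11867 nuclei and 3524165 to 46363127 unique molecular identifiers (UMIs, counted RNA molecules) per library. The labels place the Bleo_NVP libraries in run 4, the Bleo_vehicle libraries in batches 6 and 7, and the PBS libraries in runs 1 to 3. Run or batch label and group therefore cannot be told apart in any comparison with a bleomycin group. The median share of mitochondrial UMIs per barcode was 2.56%, 1.32% and 0.668% in Bleo_vehicle replicates 1 to 3 and at most 0.0496% in each of the other 9 libraries. Libraries of any pair shared at most 0.848% of their barcodes. Nuclei were grouped into cell classes by marker genes. Testing was planned for 8 classes, of which 7 held enough nuclei and were tested. Other classes, among them ciliated, club, venous and smooth muscle cells, were not tested. Each cluster of the 7 tested classes had at least 4 of its class's 6 to 8 listed markers raised.

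p53 is a transcription factor that is held at a low level because Mdm2 marks it for destruction. DNA breaks, which bleomycin causes directly, release p53 from this control, and p53 then switches on genes that stop the cell cycle, limit oxidative damage or start cell death. Mdm2 is itself a target, which closes a feedback loop. In the alveolus, type 1 epithelial cells (AT1) form the gas-exchange surface, whereas type 2 cells (AT2) make surfactant and replace AT1 cells after injury.

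p53 binds a pair of half-sites, each with the core letters CWWG (W is A or T). Several of the members are textbook examples of such binding near the start site. The RefSeq promoter windows (GRCm38.p6, 250 bases before to 50 after a start site) are shown for 3 members. In these, a search found letters that match a paired p53 element. Binding was not measured. The search took the p53 half-site by name. It is 10 bases long and reads alike on both strands. A pair could be 0 to 13 bases apart, with at most 2 mismatches over its 20 bases. Capitals mark the pair, with half-sites not overlapping each other.
Cdkn1a, chr17:29090729-29091028 (plus strand): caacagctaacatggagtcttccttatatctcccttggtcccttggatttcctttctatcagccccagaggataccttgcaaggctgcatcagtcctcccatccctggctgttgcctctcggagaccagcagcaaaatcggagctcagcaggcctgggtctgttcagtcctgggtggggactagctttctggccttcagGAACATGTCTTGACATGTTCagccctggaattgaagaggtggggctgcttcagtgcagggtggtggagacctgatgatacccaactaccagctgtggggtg
Ccng1, chr11:40755237-40755536 (minus strand): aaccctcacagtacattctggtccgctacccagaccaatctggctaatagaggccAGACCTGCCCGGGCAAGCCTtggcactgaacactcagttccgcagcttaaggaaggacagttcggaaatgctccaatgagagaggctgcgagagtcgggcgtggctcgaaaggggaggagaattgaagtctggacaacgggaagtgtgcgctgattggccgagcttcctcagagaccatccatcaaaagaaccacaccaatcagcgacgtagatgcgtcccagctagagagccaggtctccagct
Bax, chr7:45466849-45467148 (minus strand): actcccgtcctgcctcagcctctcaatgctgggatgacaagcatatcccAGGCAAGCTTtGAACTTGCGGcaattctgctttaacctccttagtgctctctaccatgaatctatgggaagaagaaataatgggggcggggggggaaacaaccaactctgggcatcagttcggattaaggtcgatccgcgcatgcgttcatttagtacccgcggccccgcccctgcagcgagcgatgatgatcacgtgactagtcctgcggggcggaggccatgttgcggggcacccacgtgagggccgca

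In the Cdkn1a window the half-sites were adjacent with 1 mismatch, and the pair began 51 bases before the start site. In the Ccng1 window they were also adjacent with 1 mismatch, in the core of the first half-site, beginning 195 bases before the start. In the Bax window they lay 1 base apart with 2 mismatches, beginning 201 bases before the start. Of all 32851 windows, 22 (0.067%) held an adjacent pair with at most 1 mismatch, and 4.085% held a pair within the wider limits. The Mdm2 window (chr10:117710709-117711008) held 1 exact half-site without a partner, as 8.36% of all windows held at least 1. The windows of Gdf15, Sesn2, Phlda3 and Eda2r and the second window of Cdkn1a held none of these letters, and 8 of the 10 members had a window, Trp53inp1 and Zmat3 having none. A match of letters is a description of these windows. In the GENCODE M21 annotation of GRCm38, the members called in any comparison span chr17:29090976-29100727 (Cdkn1a), chr11:40748552-40755311 (Ccng1), chr4:11156431-11174379 (Trp53inp1), chr4:132492032-132510501 (Sesn2), chr1:135766119-135769136 (Phlda3) and chr3:32334792-32366014 (Zmat3). All are protein-coding.

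To see how bleomycin alone moved these genes, Bleo_vehicle lungs were compared with PBS_vehicle lungs on the UMIs of all nuclei summed per library. Levels are CPM, UMI counts scaled to library size with TMM, and all 14437 genes with enough counts were tested together. The log2 change was positive for all 10 members, with a median of 0.89 against 0.01 over all genes tested. Ccng1 and Sesn2 passed the test (adjusted p < 0.05, edgeR quasi-likelihood test with Benjamini-Hochberg adjustment), 2 of 10 members where 2.43% of all genes tested passed. The 3 Bleo_vehicle libraries lay above all 3 PBS_vehicle libraries for 7 members, where 20.3% of all genes did not overlap in either direction. In such sums, fewer nuclei of a type and less RNA per nucleus cannot be told apart.

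**Figure D1:**
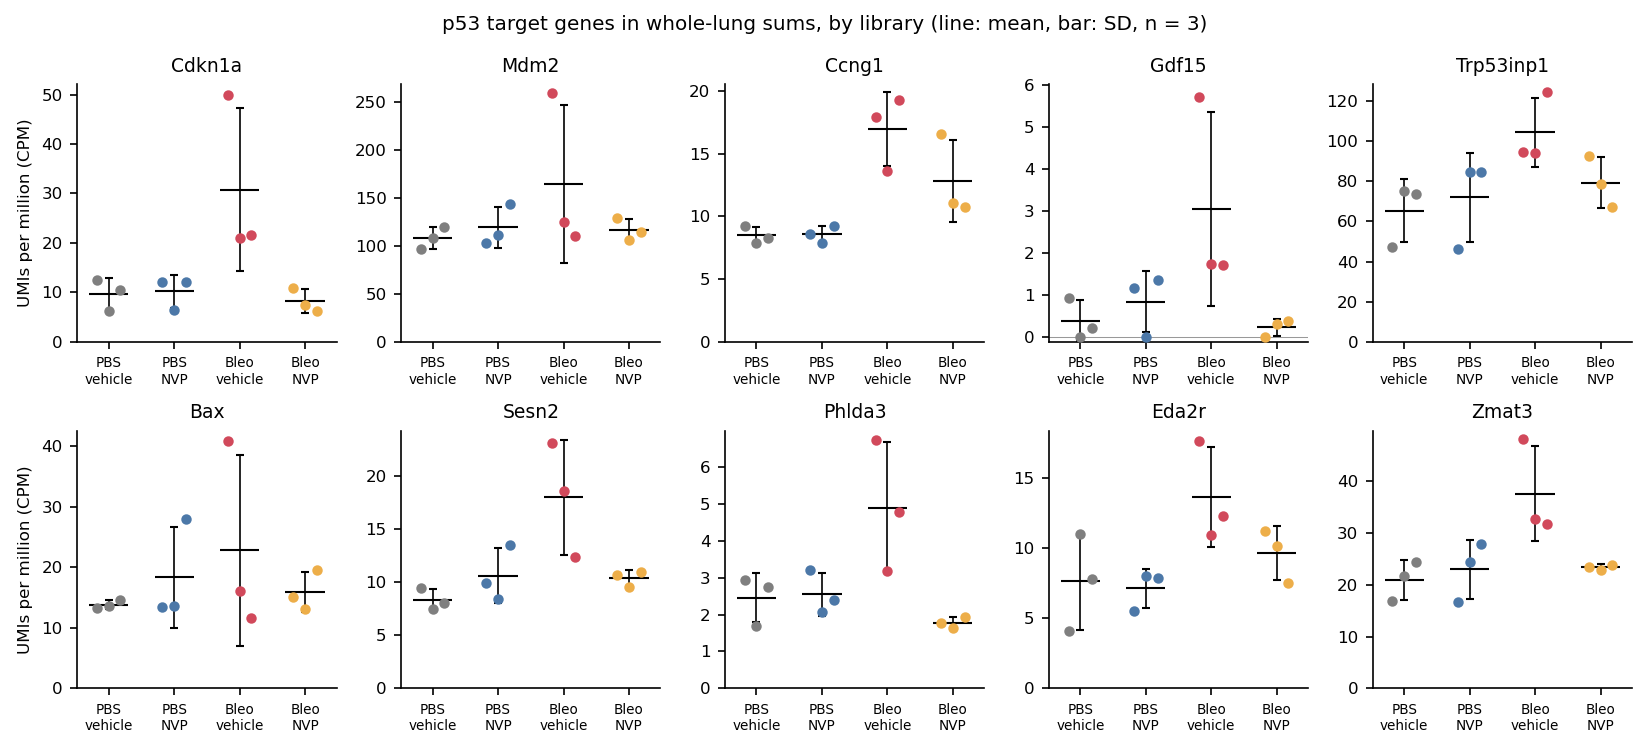
CPM (y axis, linear) of each member in whole-lung sums, 1 point per library, by group (x axis); lines are means and bars SD, n = 3. For Ccng1, Bleo_vehicle libraries lie above all PBS libraries, at 13.6 to 19.3 CPM, and overlap Bleo_NVP, where replicate 1 is at 16.6 CPM. For Cdkn1a, Mdm2, Gdf15 and Bax, 1 Bleo_vehicle library stands far above the others.

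Among the genes that halt the cell cycle, Cdkn1a encodes p21, an inhibitor of cyclin-dependent kinases. Cdkn1a stood at 12.52, 6.20 and 10.4 CPM in PBS_vehicle replicates 1 to 3 and at 49.8, 20.9 and 21.6 CPM in Bleo_vehicle. The groups did not overlap, and replicate 1 of Bleo_vehicle was more than double the other two. The log2 change was 1.62 ± 0.39 (SE, adjusted p = 0.0526, edgeR), just short of the threshold. Ccng1 encodes cyclin G1, a cyclin that acts in p53 feedback. Ccng1 rose from 9.27, 7.90 and 8.26 CPM to 17.9, 13.6 and 19.3 CPM, a log2 change of 0.99 ± 0.21 (SE, adjusted p = 0.0329, edgeR). All 3 bleomycin libraries were above all 3 controls.

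For Mdm2, the ubiquitin ligase of p53, the PBS_vehicle libraries held 97.1, 108.0 and 119.7 CPM and the Bleo_vehicle libraries 259, 125 and 110 CPM. The groups overlapped, and only replicate 1 stood apart (log2 change 0.60 ± 0.27, adjusted p = 0.259, edgeR). Without that library the log2 change of Mdm2 was 0.11. Trp53 itself, which is regulated chiefly as a protein, was at 18.4 ± 3.49 CPM in PBS_vehicle and 22.6 ± 4.69 CPM in Bleo_vehicle (SD, n = 3), with overlapping groups and a log2 change of 0.28 (adjusted p = 0.479, edgeR).

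Sesn2 and Trp53inp1 answer oxidative and metabolic stress: Sesn2 encodes sestrin 2, which restrains mTORC1, and Trp53inp1 encodes a nuclear protein that takes part in p53 signalling and autophagy. Sesn2 rose from 9.51, 7.47 and 8.05 CPM to 23.2, 18.6 and 12.4 CPM (log2 change 1.08 ± 0.25, adjusted p = 0.0464, edgeR), without overlap. Sesn2 overlaps another annotated gene, Gm12981, and Bax overlaps Gm45808, both on the same strand, so the counts of these 2 members are uncertain. Trp53inp1 was at 47.0, 74.9 and 73.7 CPM in PBS_vehicle and 94.4, 94.3 and 124.3 CPM in Bleo_vehicle. These groups did not overlap either, but the change did not pass the test (log2 change 0.69 ± 0.25, adjusted p = 0.165, edgeR).

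None of the members tied to survival and cell death passed the test. Zmat3, an RNA-binding zinc finger protein, was at 16.8, 21.7 and 24.4 CPM in PBS_vehicle against 48.1, 32.7 and 31.8 CPM in Bleo_vehicle, without overlap (log2 change 0.84 ± 0.23, adjusted p = 0.0738, edgeR). Phlda3, an inhibitor of Akt signalling, was at 2.93, 1.69 and 2.75 CPM against 6.73, 3.18 and 4.79 CPM, also without overlap (log2 change 0.93 ± 0.34, adjusted p = 0.165, edgeR). Eda2r, the receptor for ectodysplasin A2, was at 4.11, 10.999 and 7.84 CPM against 17.7, 10.98 and 12.3 CPM. The lowest bleomycin library lay just under the highest control, so the groups overlapped (log2 change 0.85 ± 0.34, adjusted p = 0.205, edgeR).

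Bax, which permeabilises mitochondria during apoptosis, was at 13.3, 13.7 and 14.6 CPM against 40.9, 16.1 and 11.6 CPM. Replicate 1 alone was high, and without it the log2 change went from 0.67 to -0.01. Gdf15, a secreted stress cytokine, was rare in nuclei, with 24 UMIs in all PBS_vehicle libraries together and 127 in Bleo_vehicle. Its level was 0.935, 0 and 0.212 CPM against 5.73, 1.74 and 1.71 CPM, where 3 UMIs in the PBS_vehicle library at 0 would be 0.423 CPM. The groups did not overlap, and the change did not pass (log2 change 2.37 ± 0.93, adjusted p = 0.197, edgeR).

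The calls in whole-lung sums rested on few libraries. Leaving out 1 library at a time gave between 0 and 4 called members, with Ccng1 called in 5 of 12 such fits and Sesn2 in 2. None was called without Bleo_vehicle replicate 1, where Cdkn1a had a log2 change of 1.10, Ccng1 0.94 and Sesn2 0.86. Among nuclei with 500 UMIs or more and no more than 1% of them mitochondrial, Ccng1 alone was called, with a log2 change of 1.17.

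The question of whether the EphB4 inhibitor altered these genes in injured lungs was addressed by comparing Bleo_NVP with Bleo_vehicle. This comparison shares the Bleo_vehicle libraries with the one above, so the signs of both are tied to the same libraries. The log2 change was negative for all 10 members, with a median log2 change of -0.58 against -0.05 over all genes tested. Cdkn1a and Phlda3 passed the test, 2 of 10 members where 5.56% of all genes tested passed. Bleo_NVP libraries lay below all Bleo_vehicle libraries for 6 members, where 32.9% of all genes did not overlap in either direction.

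Cdkn1a was at 10.96, 7.49 and 6.16 CPM in Bleo_NVP replicates 1 to 3, against 20.9 CPM or more in each Bleo_vehicle library. It fell by 1.90 ± 0.41 on the log2 scale (SE, adjusted p = 0.0238, edgeR). Phlda3 was at 1.78, 1.65 and 1.93 CPM, below all 3 Bleo_vehicle libraries, and fell by 1.42 ± 0.37 (SE, adjusted p = 0.0457, edgeR). Both calls were lost without Bleo_vehicle replicate 1, where the log2 changes were -1.41 and -1.18. Without any 1 of the Bleo_NVP libraries no member was called, and Cdkn1a was called in 8 of 12 fits that left out 1 library and Phlda3 in 4.

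Sesn2 was at 10.7, 9.59 and 10.98 CPM in Bleo_NVP, lower than every Bleo_vehicle library, with a log2 change of -0.77 ± 0.26 (adjusted p = 0.0905, edgeR). Zmat3 was nearly level among the Bleo_NVP libraries, at 23.4, 22.8 and 23.9 CPM, again below every Bleo_vehicle library (log2 change -0.67 ± 0.23, adjusted p = 0.097, edgeR). Trp53inp1 was at 92.4, 78.5 and 67.0 CPM, lower without overlap by a small margin (log2 change -0.40 ± 0.25, adjusted p = 0.325, edgeR). Gdf15 had 4 UMIs in all Bleo_NVP libraries together, at 0, 0.300 and 0.385 CPM, and its change was -3.37 ± 1.19 (adjusted p = 0.108, edgeR).

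Ccng1 was at 16.6, 11.1 and 10.8 CPM in Bleo_NVP and overlapped Bleo_vehicle (log2 change -0.42 ± 0.21, adjusted p = 0.236, edgeR). Mdm2 at 128.5, 106.3 and 114.0 CPM, Eda2r at 11.3, 10.2 and 7.51 CPM and Bax at 15.1, 13.04 and 19.6 CPM overlapped it too. For these 3 genes the adjusted p values were 0.264, 0.390 and 0.519 (edgeR).

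No member was called between the Bleo_NVP and PBS_NVP groups, in which 0% of all genes tested passed (edgeR, with 400 genes at an unadjusted p under 0.05). 1 member, Ccng1, had an unadjusted p under 0.05 there, and DESeq2 called no member. Ccng1 in Bleo_NVP lay above all 3 PBS_NVP libraries, which held 8.57, 7.91 and 9.23 CPM, with a log2 change of 0.57 ± 0.22 (unadjusted p = 0.0228, adjusted p = 0.968, edgeR). Phlda3 in Bleo_NVP lay below the PBS_NVP libraries at 3.20, 2.07 and 2.39 CPM (log2 change -0.56 ± 0.38, adjusted p = 0.968, edgeR). These 2 of 10 did not overlap, where 10.9% of all genes did not. The other members overlapped, and their median log2 change over all 10 was -0.03.

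In uninjured lungs NVP-BHG712 moved no member past the threshold, and 0% of all genes tested passed between PBS_NVP and PBS_vehicle (edgeR, with 41 genes at an unadjusted p under 0.05). None of the 10 had an unadjusted p under 0.05, DESeq2 called none, and all 10 overlapped, where 3.08% of all genes did not. The log2 changes ran from -0.09 for Eda2r to 0.73 for Gdf15. Within run 1, which holds 1 library of each group, Cdkn1a was at 12.1 CPM with the inhibitor and 12.52 CPM without. Within run 2, with 1 PBS_NVP and 2 PBS_vehicle libraries, it was at 6.35 and 8.29 CPM.

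Whether the inhibitor acted differently in injured and uninjured lungs was tested as an interaction, for which 0.298% of all genes tested passed. No member was called (edgeR), and 5 had an unadjusted p under 0.05, as did 2076 of all 14437 genes tested. Of these Cdkn1a had the lowest p, and its difference of differences was -1.96 ± 0.57 (log2, SE, unadjusted p = 0.00477, adjusted p = 0.187, edgeR). DESeq2 called Cdkn1a alone (adjusted p = 0.0393), where it called 2.44% of all genes. With the replicate number as a block, the value for Cdkn1a was -1.89 and was called (adjusted p = 0.0316, edgeR). Bleomycin libraries share only a number, and a pairing of the PBS mice was not shown either.

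Single-nucleus data allow the same genes to be read within cell classes, each summed per library and fitted on its own. Members with enough counts numbered 8 in AT1, 6 in AT2, 9 in fibroblasts, 4 each in general capillary endothelium and alveolar macrophages, 3 in aerocytes (the gas-exchange capillary cells) and 1 in interstitial macrophages or monocytes. After bleomycin, 3 gene and class pairs were called, all of them higher. They were Trp53inp1 and Zmat3 in AT2 and Sesn2 in AT1. The share of all genes called was 5.07% in AT2, 3.57% in AT1, 4.22% in fibroblasts, 3.32% in general capillary cells, 0.712% in aerocytes, 6.81% in alveolar macrophages and 0.0352% in interstitial macrophages or monocytes.

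In AT2 nuclei Trp53inp1 was at 29.3, 55.6 and 64.6 CPM in PBS_vehicle and at 237.0, 173.3 and 190.8 CPM in Bleo_vehicle. Every bleomycin library was more than double every control library. The log2 change was 2.14 ± 0.37 (SE, adjusted p = 0.00443, edgeR), and it was called in 20 of 20 alternative analyses, with adjusted p values from 2.48e-11 to 0.0389. Zmat3 in AT2 rose from 18.6, 25.3 and 20.5 CPM to 94.8, 53.8 and 56.5 CPM (log2 change 1.61 ± 0.37, adjusted p = 0.0158, edgeR). Again the groups did not overlap, and it was called in 18 of 20 alternatives, with adjusted p values from 0.00253 to 0.120.

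Cdkn1a in AT2 was at 8.52, 2.53 and 29.4 CPM against 132.7, 43.3 and 43.6 CPM. The groups did not overlap, but the controls differed widely among themselves (log2 change 2.46 ± 0.80, adjusted p = 0.0994, edgeR). Sesn2, Mdm2 and Bax overlapped in AT2, with log2 changes of 0.69, 0.52 and 0.89. In all, 3 of the 6 members tested in AT2 were higher without overlap, where 22.5% of all genes did not overlap.

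In AT1 nuclei Sesn2 rose from 11.6, 11.3 and 11.2 CPM to 25.9, 30.7 and 19.0 CPM (log2 change 1.12 ± 0.27, adjusted p = 0.0369, edgeR). The controls were almost identical, and the lowest bleomycin library was well above them. This call was kept in 9 of 20 alternatives, with adjusted p values from 0.0193 to 0.142. Eda2r was rare in control AT1 nuclei, at 0.330, 1.33 and 4.91 CPM, and stood at 23.5, 16.3 and 12.7 CPM after bleomycin. That log2 change, 3.40 ± 0.97, did not pass (adjusted p = 0.0759, edgeR), although the groups were far apart.

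Ccng1 in AT1 was at 9.58, 8.64 and 13.3 CPM against 29.1, 23.3 and 30.6 CPM (log2 change 1.42 ± 0.39, adjusted p = 0.0598, edgeR). Zmat3 was at 15.7, 16.6 and 18.2 CPM against 47.7, 28.1 and 28.2 CPM (log2 change 1.01 ± 0.28, adjusted p = 0.0565, edgeR). Neither gene's groups overlapped. With Cdkn1a, Mdm2, Trp53inp1, Sesn2 and Eda2r, 7 of 8 members tested in AT1 were higher without overlap, where 22% of all genes did not overlap, and Bax overlapped. DESeq2 called 7 gene and class pairs over the tested classes. They were Ccng1, Eda2r, Sesn2, Trp53inp1 and Zmat3 in AT1, where it called 6.6% of all genes, and Trp53inp1 and Zmat3 in AT2, where it called 5.55%.

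**Figure D2:**
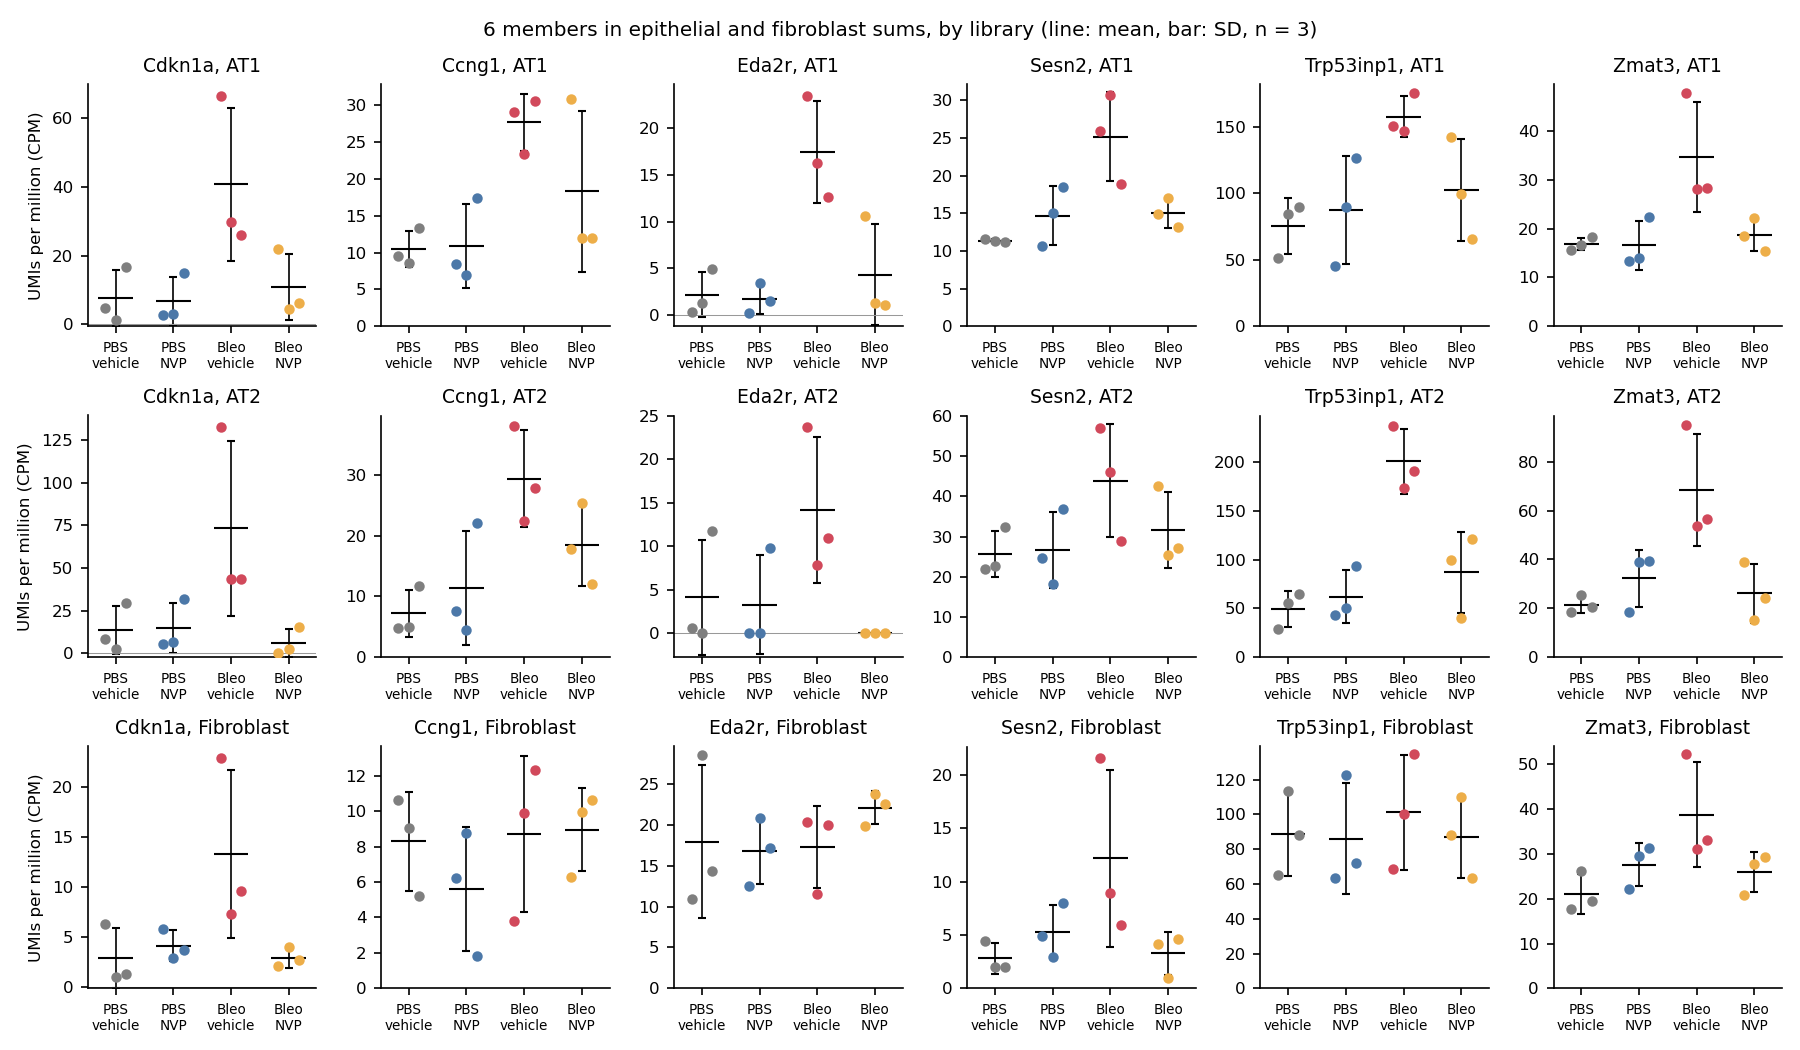
CPM (y axis, linear) of 6 members in AT1, AT2 and fibroblast sums, 1 point per library, by group (x axis); lines are means and bars SD, n = 3. Trp53inp1 in AT2 lies at 173.3 CPM or more in each Bleo_vehicle library and at 64.6 CPM or less in each PBS_vehicle library, whereas in fibroblasts the groups overlap.

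Fibroblasts, the largest class with 9488 nuclei, had no called member, but Cdkn1a and Sesn2 were each called in 3 of 20 alternative analyses. Cdkn1a was at 6.35, 1.00 and 1.30 CPM in PBS_vehicle and 22.9, 7.35 and 9.59 CPM in Bleo_vehicle, without overlap (log2 change 1.72 ± 0.58, adjusted p = 0.117, edgeR). Sesn2 was at 4.46, 2.01 and 1.95 CPM against 21.6, 8.95 and 5.95 CPM, also without overlap (log2 change 1.72 ± 0.59, adjusted p = 0.122, edgeR). Zmat3 was the third member without overlap, with a log2 change of 0.83 (adjusted p = 0.0825, edgeR). That made 3 of 9 tested, where 20.8% of all genes did not overlap. Without PBS_vehicle replicate 1 the log2 change of Cdkn1a was 3.33 and was called (adjusted p = 0.0207, edgeR), and without Bleo_vehicle replicate 3 that of Sesn2 was 2.14 and was called (adjusted p = 0.0423, edgeR).

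Trp53inp1 in fibroblasts was at 65.2, 113.4 and 87.8 CPM against 68.8, 100.1 and 134.9 CPM, so the groups overlapped throughout (log2 change 0.24 ± 0.30). Ccng1 at 10.6, 9.03 and 5.21 CPM against 3.82, 9.91 and 12.3 CPM gave a log2 change of 0.17, and Eda2r gave -0.04. All 3 of these signs turned in at least 1 alternative, the values ranging from -0.02 to 0.45 for Trp53inp1, -0.14 to 0.43 for Ccng1 and -0.35 to 0.46 for Eda2r over the alternatives. The difference between fibroblasts and epithelium in these genes was not tested.

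Endothelial and immune classes gave no called member with all libraries in the fit. In general capillary cells Trp53inp1 was at 27.5, 34.6 and 18.2 CPM against 47.9, 53.02 and 53.4 CPM, without overlap (log2 change 0.90 ± 0.31, adjusted p = 0.145, edgeR). Zmat3 did not overlap there either, with a log2 change of 1.08 ± 0.58. In aerocytes Cdkn1a was at 67.1, 43.8 and 21.99 CPM in controls and 44.2, 31.3 and 44.1 CPM after bleomycin, a log2 change of -0.38 that became 0.15 without PBS_vehicle replicate 1. In alveolar macrophages Mdm2, Trp53inp1, Bax and Zmat3 overlapped, with log2 changes from 0.12 to 0.66. Without Bleo_vehicle replicate 3, Mdm2 had a log2 change of 0.83 there and was called (adjusted p = 0.0274, edgeR), whereas Bax and Zmat3 changed sign in some alternatives, ranging from -0.61 to 0.56 and -0.29 to 0.67. In interstitial macrophages or monocytes only Mdm2 could be tested, with a log2 change of 0.39 that was -0.01 without PBS_vehicle replicate 1.

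With NVP-BHG712 added to bleomycin, no gene and class pair was called (edgeR), and DESeq2 called 3. They were Cdkn1a and Trp53inp1 in AT2, where it called 6.35% of all genes, and Cdkn1a in fibroblasts, where it called 10.3%. Pairs with an unadjusted p under 0.05 (edgeR) numbered 4 of 8 in AT1, where 1939 of 9282 genes had one, and 3 of 6 in AT2, where 1214 of 6036 genes did. They numbered 3 of 9 in fibroblasts (2439 of 10418 genes), 1 of 4 in general capillary cells (990 of 6062 genes) and 1 of 4 in alveolar macrophages (1214 of 6252 genes). The share of all genes called was 5.04% in AT1, 5.5% in AT2, 7.4% in fibroblasts, 3.56% in general capillary cells, 1.26% in aerocytes, 4.33% in alveolar macrophages and 0% in interstitial macrophages or monocytes.

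Trp53inp1 in AT2 was at 99.2, 40.6 and 120.9 CPM in Bleo_NVP, below all Bleo_vehicle libraries (log2 change -1.20 ± 0.37, adjusted p = 0.0665, edgeR). Zmat3 in AT2 was at 39.0, 15.2 and 24.2 CPM, also below all of them (log2 change -1.32 ± 0.40, adjusted p = 0.058, edgeR). Cdkn1a in AT2 was at 0, 2.54 and 15.1 CPM (log2 change -3.38 ± 0.99, adjusted p = 0.066, edgeR). These values came from 0, 1 and 5 UMIs, so the size of this change is uncertain. In these libraries 3 UMIs would be 10.6, 7.62 and 9.07 CPM. Members lower without overlap numbered 3 of 6 in AT2, where 26% of all genes did not overlap, 5 of 8 in AT1, where 28.2% did not, and 4 of 9 in fibroblasts, where 30.1% did not.

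Eda2r in AT2 had too few UMIs for the test. It was at 0.533, 0 and 11.7 CPM in PBS_vehicle, 23.7, 7.88 and 10.9 CPM in Bleo_vehicle and 0 in all 3 Bleo_NVP libraries, where 3 UMIs over the 3 libraries together would be 2.98 CPM. In fibroblasts Phlda3 was at 1.047, 1.49 and 0.665 CPM in Bleo_NVP against 8.91, 3.20 and 6.95 CPM in Bleo_vehicle, lower without overlap (log2 change -2.39 ± 0.71, adjusted p = 0.053, edgeR). The Bleo_NVP values of Phlda3 came from 1, 3 and 1 UMIs. Sesn2 in fibroblasts was at 4.19, 0.993 and 4.65 CPM, from 4, 2 and 7 UMIs. It was lower than each Bleo_vehicle library (log2 change -1.77 ± 0.66, adjusted p = 0.118, edgeR).

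Against PBS_NVP, Bleo_NVP gave no called pair in any of the 7 classes, in each of which 0% of all genes tested passed. DESeq2 called none either, and 1 pair, Phlda3 in fibroblasts, had an unadjusted p under 0.05, as did 306 of 10418 genes there (edgeR, log2 change -1.93 ± 0.71, unadjusted p = 0.0165). Trp53inp1 in AT2 was at 42.9, 50.2 and 93.2 CPM in PBS_NVP, which the Bleo_NVP libraries overlapped (log2 change 0.56 ± 0.40).

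**Figure D3:**
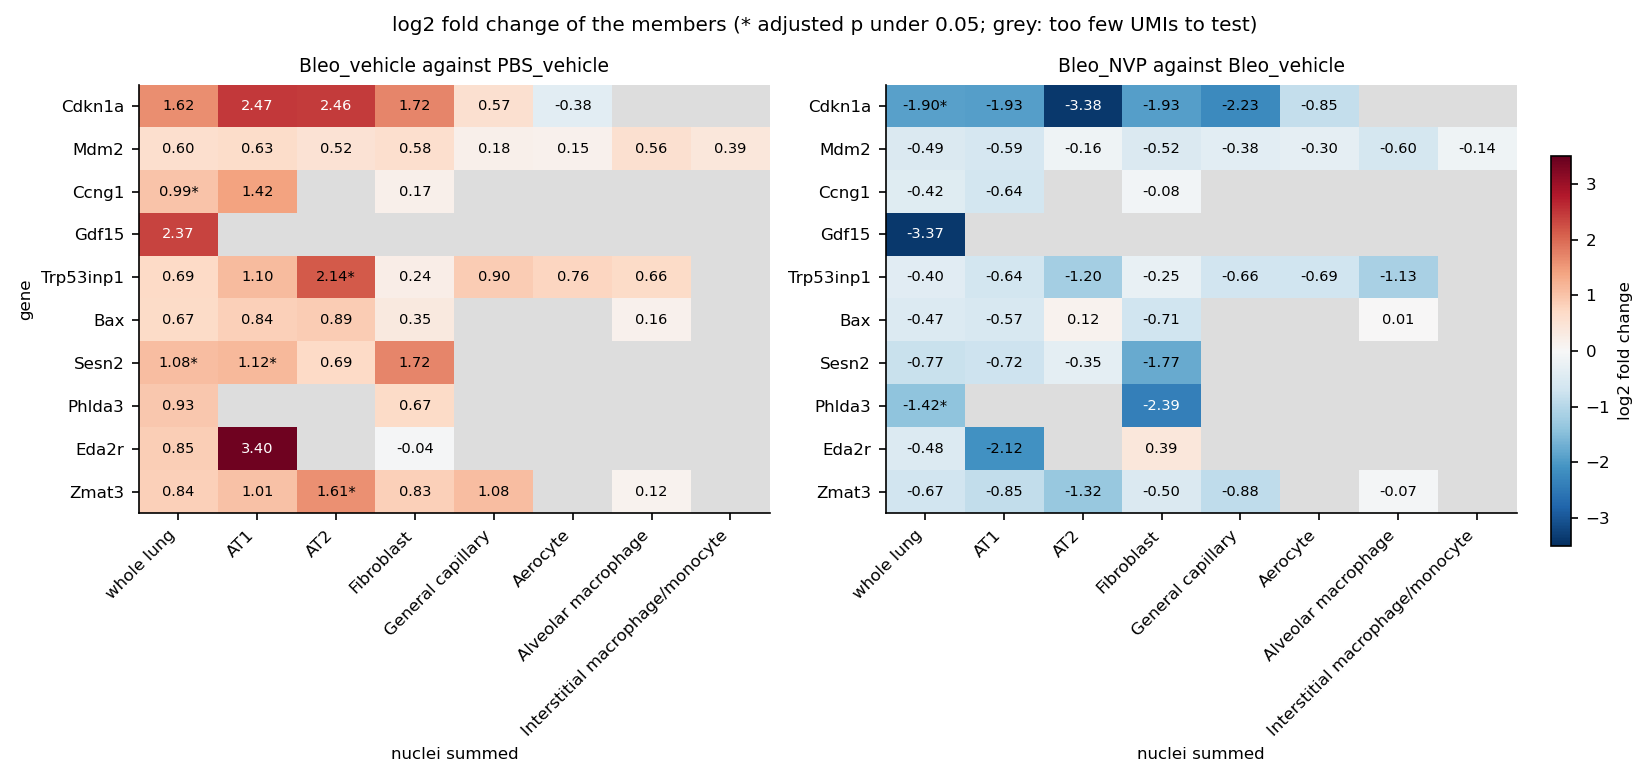
log2 fold change (colour and printed value) of each member (rows) in whole-lung sums and 7 cell classes (columns) for 2 comparisons that share the Bleo_vehicle libraries; asterisks mark adjusted p under 0.05 and grey cells had too few UMIs. Called pairs in classes are Sesn2 in AT1 and Trp53inp1 and Zmat3 in AT2, on the left, and none on the right.

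Cell composition differed between groups, since interstitial macrophages or monocytes made up 6.47% ± 1.69 of Bleo_vehicle nuclei and 1.92% ± 0.64 of PBS_vehicle nuclei (SD, n = 3), and alveolar macrophages 11.6% ± 5.78 and 6.47% ± 1.61. Levels were therefore also averaged over the 7 classes with equal weight. At these fixed shares the ratio of Bleo_vehicle to PBS_vehicle was 2.26 for Cdkn1a, against 3.17 in whole-lung sums. For Ccng1 it was 2.48 against 2.00, for Sesn2 2.24 against 2.16 and for Trp53inp1 1.87 against 1.60. All 10 ratios were above 1 on both scales, and Cdkn1a, Ccng1, Gdf15, Trp53inp1, Sesn2 and Eda2r did not overlap at fixed shares, 6 of 10 members where 19.4% of all 14437 genes did not overlap in either direction. Zmat3 and Phlda3, which did not overlap in whole-lung sums, overlapped at fixed shares, with ratios of 1.47 and 1.78. Equal weight also went to classes with few UMIs, so overlap at fixed shares is uncertain where counts are low. For Zmat3, PBS_vehicle replicate 3 stood at 75.4 CPM in interstitial macrophages or monocytes, from 4 UMIs.

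The ratio of Bleo_NVP to Bleo_vehicle at fixed shares was 0.34 for Cdkn1a, 0.32 for Phlda3, 0.52 for Sesn2 and 0.58 for Zmat3, all lower without overlap. Eda2r at 0.56 and Trp53inp1 at 0.60 were lower without overlap too, which made 6 of 10 members where 26.6% of all genes did not overlap in either direction. Ccng1 at 0.77, Mdm2 at 0.73, Bax at 0.86 and Gdf15 at 0.29 overlapped. In interstitial macrophages or monocytes, Gdf15 in Bleo_NVP replicate 3 was 15.3 CPM from 1 UMI. Cdkn1a in Bleo_NVP replicate 1 was 52.2 CPM there, from 2 UMIs. No member's groups were separated at fixed shares between Bleo_NVP and PBS_NVP, where 10.2% of all genes were, and Ccng1 had the highest ratio, 1.54.

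**Figure D4:**
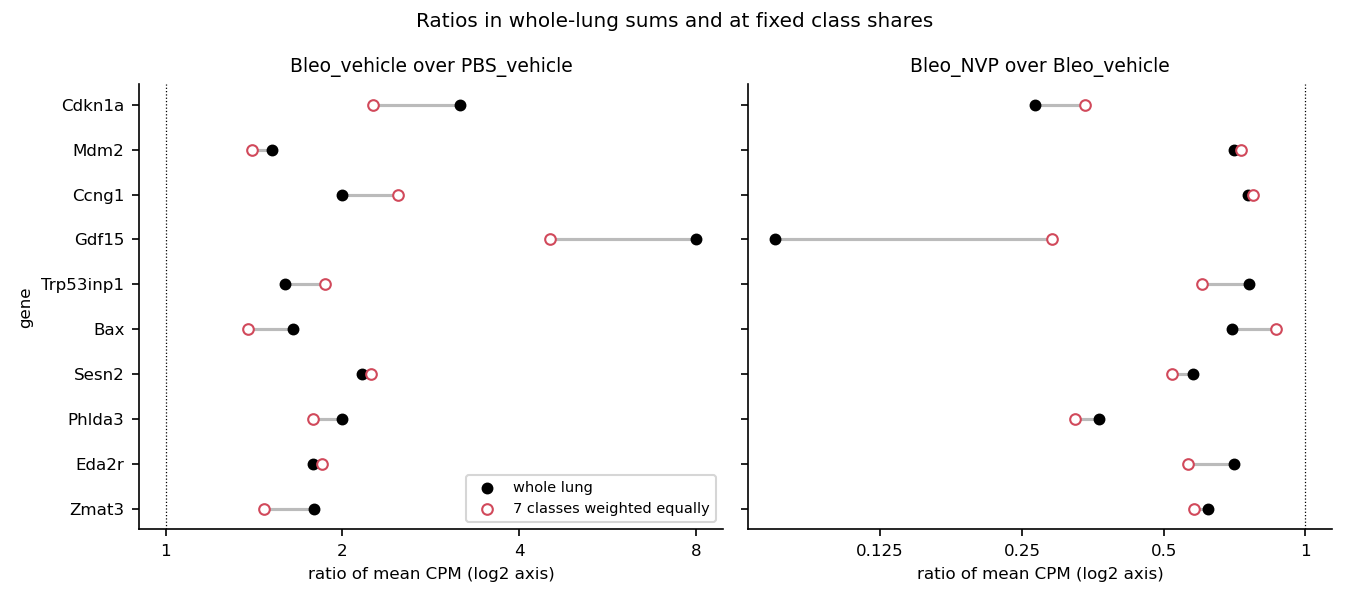
Ratio of group mean CPM (x axis, log2 scale) for each member (y axis) in whole-lung sums (filled) and with 7 cell classes weighted equally (open). In the left panel all ratios exceed 1, and Cdkn1a moves from 3.17 to 2.26 at fixed shares.

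The classes also differed in their usual level of each member, read as CPM within a class (without TMM) over the libraries with at least 20 nuclei of it. Mdm2 was highest in ciliated cells at 339.9 ± 108.4 (SD, n = 12 libraries), followed by interstitial macrophages or monocytes at 186.2 ± 44.4 and alveolar macrophages at 148.6 ± 41.2, and these macrophage classes did not differ beyond their spread. Trp53inp1 was at 112.4 ± 29.3 in ciliated cells, 103.7 ± 40.6 in AT1, 92.9 ± 58.8 in AT2 and 89.7 ± 23.9 in fibroblasts, neighbours within each other's spread. Cdkn1a was highest in aerocytes at 32.7 ± 21.6, with AT2 at 24.5 ± 31.9 within that spread. In Bleo_vehicle alone its mean was 36.1 in aerocytes, below AT2 at 64.5, venous cells at 61.5 and AT1 at 39.2.

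Sesn2 was at 30.1 ± 9.6 in AT2 and 24.0 ± 24.1 in pericytes (n = 8 libraries), which lay within each other's spread. In pericytes it went opposite to the whole-lung sums. Its mean there was 44.2 in PBS_vehicle (n = 2 libraries, 29 UMIs) and 9.54 in Bleo_vehicle (n = 3 libraries, 12 UMIs). This difference was not tested. Eda2r was at 18.2 ± 4.6 in fibroblasts and at 46.5 ± 47.8 in mesothelial cells (n = 9 libraries), whose values were too scattered to rank above. Bax was at 35.3 ± 21.0 in dendritic cells (n = 6 libraries), 33.3 ± 16.6 in interstitial macrophages or monocytes and 32.5 ± 15.9 in alveolar macrophages. Gdf15 was at 3.3 ± 3.8 in alveolar macrophages and 2.1 ± 2.8 in AT2, values too scattered to rank. Phlda3 was at 9.48 ± 6.05 in ciliated cells and 4.74 ± 5.81 in mesothelial cells (n = 9 libraries), again within that spread. In Bleo_vehicle alone its mean was 5.23 in ciliated cells (24 UMIs) and 11.03 in mesothelial cells (10 UMIs). Ccng1 at 17.3 ± 13.4 in lymphatic cells (n = 7 libraries), 16.6 ± 8.9 in AT1 and 15.5 ± 9.4 in AT2, and Zmat3 at 38.8 ± 16.7 in club cells and 34.5 ± 19.3 in AT2, were alike within their spread. These means run over all 4 groups.

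The wider p53 network was read from lists of related genes. Among 11 genes for p53 and its regulators, none was called in either bleomycin comparison (edgeR), with median log2 changes of -0.11 after bleomycin and 0.13 with the inhibitor. Of 9 other targets for arrest and feedback, 2 rose after bleomycin, where 2.43% of all genes tested passed. Sfn, which encodes the checkpoint protein 14-3-3 sigma, rose from 1.62 ± 0.50 to 9.75 ± 6.90 CPM (SD, n = 3, log2 change 2.54, adjusted p = 0.023, edgeR). Ckap2, a spindle protein, rose from 0.334 ± 0.109 to 2.79 ± 1.68 CPM (log2 change 2.83, adjusted p = 0.0326, edgeR). Of 7 metabolic targets tested, Rps27l, a ribosomal protein paralogue, was the 1 called, rising from 3.15 ± 0.39 to 7.49 ± 0.77 CPM (log2 change 1.23, adjusted p = 0.0223, edgeR).

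None of 6 repair genes or 7 cell death genes tested was called after bleomycin, where 2.43% of all genes passed. Their median log2 changes were -0.10 and 0.43. Of 8 senescence-associated genes 5 were tested and none was called after bleomycin, with median log2 changes of 0.83 after bleomycin and -0.72 with the inhibitor. With the inhibitor, 5.56% of all genes tested passed. Sfn fell by 2.56 on the log2 scale there (adjusted p = 0.0174, edgeR) to 1.49 ± 0.69 CPM. Rps27l fell by 1.10 (adjusted p = 0.0234, edgeR) to 3.49 ± 0.63 CPM.

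Lists that share genes or triggers with p53 were read beside these. No immediate-early or heat shock gene was called. Their summed level was 209.8, 103.2 and 73.5 CPM in Bleo_vehicle replicates 1 to 3. It ranged from 50.5 to 119.9 in PBS_vehicle and 46.6 to 66.9 in Bleo_NVP. The ATF4 targets are genes of the amino acid and endoplasmic reticulum stress response that also drives Sesn2 and Gdf15. Their summed level was 76.5, 34.8 and 32.1 CPM in Bleo_vehicle replicates 1 to 3 and 28.5 to 36.0 in PBS_vehicle. For both lists, only replicate 1 of Bleo_vehicle lay above the PBS_vehicle range. Of 8 ATF4 targets tested, only Ddit4, an mTORC1 inhibitor, was called with NVP-BHG712, where 5.56% of all genes passed. Ddit4 fell by 2.27 (adjusted p = 0.0478, edgeR). The part of these stress lists, of mitochondrial share and of run or batch in the members' values was not tested.

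**Figure D5:**
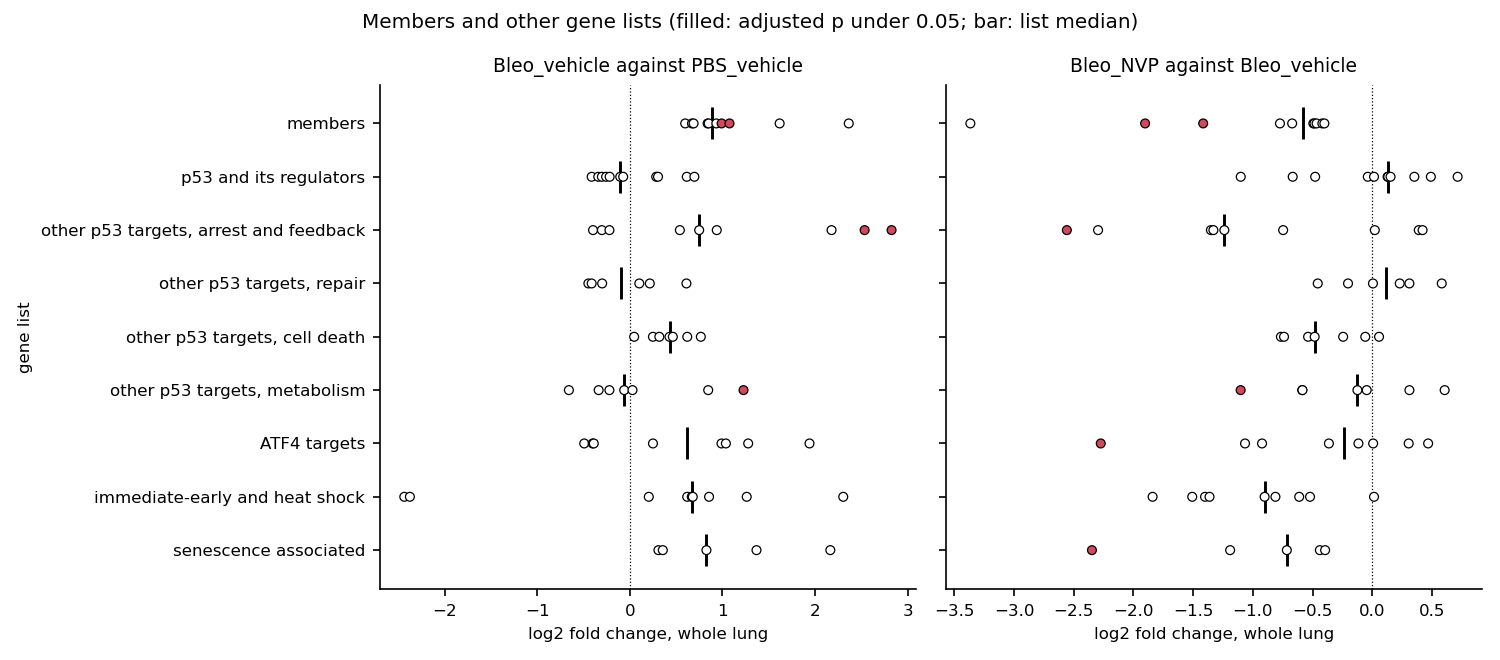
log2 fold change in whole-lung sums (x axis) of each tested gene of the members and 8 other lists (y axis), 1 point per gene; filled points passed at adjusted p under 0.05 and bars are list medians. The members' median is 0.89 on the left and -0.58 on the right, and p53 and its regulators lie around 0, at -0.11 and 0.13.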

How the data were processed

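Nuclei of 12 frozen mouse lungs were profiled with 10x Chromium 3′ chemistry. The deposited values are raw UMI counts per gene and barcode, which the authors made with Cell Ranger on build mm10 (version 7.0 in the submitters' processing notes, 7.2.0 in the file header). No column lacked a sample. Barcodes with 200 to 6000 genes and at most 5% mitochondrial UMIs were kept (47319 of 49163). The 2708 with the highest Scrublet scores were removed, a share that grew with the nuclei per library. Counts were normalised, Harmony-corrected and clustered with scanpy 1.11.5 (Leiden resolution 1, 30 components). The 40 clusters were named from marker lists (43205 nuclei named). A rule that leaves clusters with markers of 2 classes unnamed was set after clusters were seen.

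UMIs were summed per library and class, keeping libraries with at least 20 nuclei of a class and at least 2 libraries per group, and tested with edgeR 4.0.16 (TMM, robust quasi-likelihood, all 12 libraries in 1 fit, Benjamini-Hochberg over all genes tested, threshold 0.05). Of 8 classes planned, T or NK cells had too few nuclei. DESeq2 1.42.0, other scalings and filters, left-out libraries, kept doublets, stricter nuclei, a replicate block and clustering without Harmony were alternatives. The test was tried on simulated counts. Members and gene lists were chosen with earlier results of these data known. All 10 members are named, and other lists by count, with Trp53 and called genes of at least 1 CPM on average named. 1 such gene is not reported here. Same-numbered PBS_vehicle and PBS_NVP libraries deviated together from their group means (r = 0.74, 0.39 and 0.50). These values depend on each other, and replicates 1 and 2 of these groups also shared runs 1 and 2. They do not show that mice were paired. Bleomycin libraries shared only a number. Each library is 1 mouse. Floors cover counting error only.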

Additional observations from a re-analysis of the deposited data

How the results depend on the processing

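Of members called in whole-lung sums between Bleo_vehicle and PBS_vehicle (2), DESeq2 gave 4, library totals without TMM 0, no filter on low counts 0, a fit of only the libraries compared 0 and the stricter choice of nuclei 1. Between Bleo_NVP and Bleo_vehicle (2), DESeq2 gave 3 (Gdf15 was the addition, log2 change -3.57, adjusted p = 0.0422), totals without TMM gave 1, no filter 1, only the libraries compared 0 and stricter nuclei 1. Leaving out 1 library at a time gave 0 to 4 and 0 to 3. For the interaction (0), DESeq2 gave 1. Called gene and class pairs after bleomycin (3) numbered 7 with DESeq2, 13 without the filter and 2 to 7 with 1 library left out. With the inhibitor (0) they numbered 3 with DESeq2, 10 without the filter, 1 with only the libraries compared, 2 when clusters were found without Harmony and 0 to 4 with 1 library left out. The cause of these shifts was not tested. With the replicate number as a block, 3, 2 and 1 members were called in whole-lung sums for bleomycin, the inhibitor and the interaction, and 6 and 4 pairs in classes. Cdkn1a was the member called for the interaction (-1.89). After bleomycin the block called Cdkn1a too in whole-lung sums (1.62), and in classes Ccng1 in AT1 and Cdkn1a and Sesn2 in fibroblasts (log2 changes 2.07 and 1.91) beside the 3 pairs called without it. With the inhibitor it called Cdkn1a and Trp53inp1 in AT2 and Cdkn1a and Phlda3 in fibroblasts. Same-numbered bleomycin libraries had correlations of deviations from -0.15 to 0.29, so they share only a number, and 9 of 12 libraries correlated best with their own number. Between PBS_NVP and PBS_vehicle and between Bleo_NVP and PBS_NVP, the count was 0 under every alternative run. Among single log2 changes, none that was called in either setting changed sign. In whole-lung sums, 1 of 189 values changed sign after bleomycin and 1 of 189 with the inhibitor, both for Bax without Bleo_vehicle replicate 1 (-0.01 and 0.20). Between PBS_NVP and PBS_vehicle 20 of 197 values did, between Bleo_NVP and PBS_NVP 9 of 188, and for the interaction 0 of 179. Within classes, 19 of 693 values changed sign after bleomycin, 22 of 689 with the inhibitor and 44 of 685 between Bleo_NVP and PBS_NVP. T or NK cells were not run in any setting, nor interstitial macrophages or monocytes with doublets kept. Where a left-out library leaves 2 in a group, the spread is pooled over groups. Low counts limit Gdf15 and Phlda3 most.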
